A study of Homo sapiens with 6 samples.

Results

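The transcripts followed here are those of 46 genes that cells use to copy their DNA and to divide, read in human gastric cancer cells with and without a KRT17 knockout. The genes were matched by symbol to a list, 22 for DNA replication (MCM2 to UHRF1) and 24 for mitosis (CCNA2 to ANLN), out of 58735 gene IDs in the files. All 46 were found in all 6 libraries and all 46 passed the filter on low values. The 2 groups of knockout cells, KO1 and KO2, and wild-type cells (WT) had 2 libraries each. All 3 groups are NCI-N87, an established line from a human gastric carcinoma in which ERBB2 is amplified. The genotype label reads KRT17 knockout for both KO1 and KO2 and wild type for WT, and no treatment, time or other allele is given. The labels do not state whether KO1 and KO2 differ by guide or by clone, or whether libraries of a group came from separate cultures, so the p-values measure spread between libraries alone, and that spread may be technical.

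Before DNA is copied, the MCM2 to MCM7 helicase ring is loaded on origins with the help of CDT1. Cyclin E with its kinase, CDC45 and the GINS complex then turn the ring into an active helicase, and polymerases with the sliding clamp PCNA follow. Many of these genes are driven by E2F transcription factors as cells leave G1. The mitotic genes come later: cyclin A2 and the B cyclins activate CDK1, the polo-like and Aurora kinases build the spindle, and CDC20 starts the destruction of cyclin B. Their promoters are known for a cell cycle genes homology region, the CHR motif, and for CCAAT boxes. In carcinoma lines both groups are read as signs of proliferation.

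Gene IDs and positions are those of GENCODE release 29 on GRCh38. The authors deposited FPKM, fragments normalised for exon length and sequencing depth, so levels of different genes may be set side by side. Read numbers recovered from the FPKM steps came to between 17599759 and 22852340 per library, and no library had fewer than 142 reads in any of the 46 genes. Tests were limma fits of log2(FPKM + 1) over 16046 genes, and a gene is named as called when its Benjamini-Hochberg adjusted p was below 0.05; every change named log2 is on that scale, ± SE. The targeted gene KRT17 was at 2.35 ± 0.0823 FPKM in KO1 and 10.9 ± 0.660 in KO2, against 746 ± 10.1 in WT (mean ± SD, n = 2 each), and the residual level is uncertain because close paralogs share its sequence. Most of the transcriptome differed from WT: 77.8% of tested genes were called in KO1 against WT and 78.9% in KO2 against WT, while 26.2% were called in KO2 against KO1. Of 12 markers of epithelial and gastric carcinoma cells, all 12 were lower in both knockout groups, and their summed level was 433 and 444 FPKM in KO1 and 372 and 369.5 in KO2, against 5317 and 5482 in WT. ESRP1 was at 0 in all 4 knockout libraries, CDX2 in 3 of them and KRT19 in both KO2 libraries. In every knockout library 5 of the 12 were under 1 FPKM, and the others were at 1 FPKM or above. The smallest change was -0.35 log2 in KO1 and -0.45 in KO2. All 8 fibroblast markers were under 1 FPKM in both WT libraries. The 5 that were tested passed the filter through the knockout libraries alone, so their higher calls there are no separate result. In each KO1 library 4 of the 8 were under 1 FPKM, and in each KO2 library 3 were. The summed level of the 8 was 84.6 and 83.0 FPKM in KO1 and 95.6 and 99.2 in KO2, against 0.886 and 1.21 in WT. The summed level stayed at or under 2.19 FPKM for 6 leukocyte markers and 0.798 FPKM for 5 endothelial markers in every library. For the epithelial markers under 1 FPKM and the fibroblast markers above it, the knockout libraries go against the label of a gastric epithelial line. The identity of these libraries was not tested. The part of these marker changes in the results below was not tested. With library size as the only scaling, the median of all genes moved up by 0.11 log2 in KO1 against WT and 0.13 in KO2 against WT, and calls of about that size are marked where they depend on it.

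Both knockout groups carried more mRNA than WT for 12 of the 22 replication genes, among them CDT1, POLA1 and both cyclin E genes, and less for 13 of the 24 mitosis genes, among them cyclins A2 and B1, CDC20 and PLK1. Of these 13, CCNB2 and UBE2C lost the KO2 call under quantile normalization, library-size scaling and voom. Another 6 mitosis genes (CDK1, KIF20A, TPX2, AURKA, BIRC5 and CDC25C) were called lower in KO1 and not called lower in KO2. The KO1 calls of CDK1, KIF20A and TPX2 were lost under all 3 other scalings, and CDC25C was not called between KO2 and KO1 (limma adjusted p = 0.0701). In KO1 against WT, 12 of 22 replication genes rose, 5 fell and 5 were not called, against 39.3% higher and 38.6% lower among all tested genes. Of 24 mitosis genes, 4 rose, 19 fell and 1 was not called in the same comparison. In KO2 against WT, 12 replication genes rose and 7 fell, and 8 mitosis genes rose and 13 fell, against 39.1% higher and 39.8% lower among all genes. With library size as the only scaling or with voom, the replication genes in KO2 split into 14 higher and 4 lower. Under either of these or quantile normalization, the mitosis genes split into 10 higher and 11 lower in KO2 and 5 higher and 16 lower in KO1. So many genes were called in these libraries that the number of called replication genes, 17 of 22 in KO1 and 19 of 22 in KO2, is not far from that background. The share of all tested genes called in the same direction in both knockout groups was not computed. Among 41 other replication genes, more were called lower than higher in each group. The members were chosen with earlier results of these data known. In bulk RNA, fewer cells in a phase of the cycle and less of a transcript per cell cannot be told apart.

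The median change of the replication genes was 0.30 log2 in KO1 and 0.28 in KO2 against WT, beside 0.023 and 0.0062 over all tested genes. The median of the mitosis genes was -0.54 log2 in KO1 and -0.23 in KO2. Under quantile normalization, library-size scaling and voom, the mitosis median in KO2 was -0.14, -0.076 and -0.088 log2 and the replication median 0.44, 0.44 and 0.46. The geometric mean level of the replication genes was 24.6 and 24.1 FPKM in KO1 and 24.9 and 25.1 in KO2, against 19.9 and 19.9 in WT. All 4 knockout libraries lay above both WT libraries. For the mitosis genes it was 19.5 and 19.4 FPKM in KO1 and 23.0 and 23.3 in KO2, against 26.8 and 26.1 in WT, so the order ran KO1, KO2, WT from low to high with no overlap between groups. The mitosis to replication ratio of these means was 0.792 and 0.805 in KO1 and 0.924 and 0.926 in KO2, against 1.34 and 1.31 in WT; scaling of a library cancels in this ratio. The groups did not overlap in it either. Gene by gene, both libraries lay above both WT libraries for 13 of 22 replication genes in KO1 and 13 in KO2, and below them for 6 and 8. Of 24 mitosis genes, 4 in KO1 and 9 in KO2 lay above WT in this sense, and 20 and 15 below. Among all tested genes both libraries were above WT for 45.1% and below it for 44% in KO1, and for 44.2% and 44.3% in KO2.

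**Figure D1:**
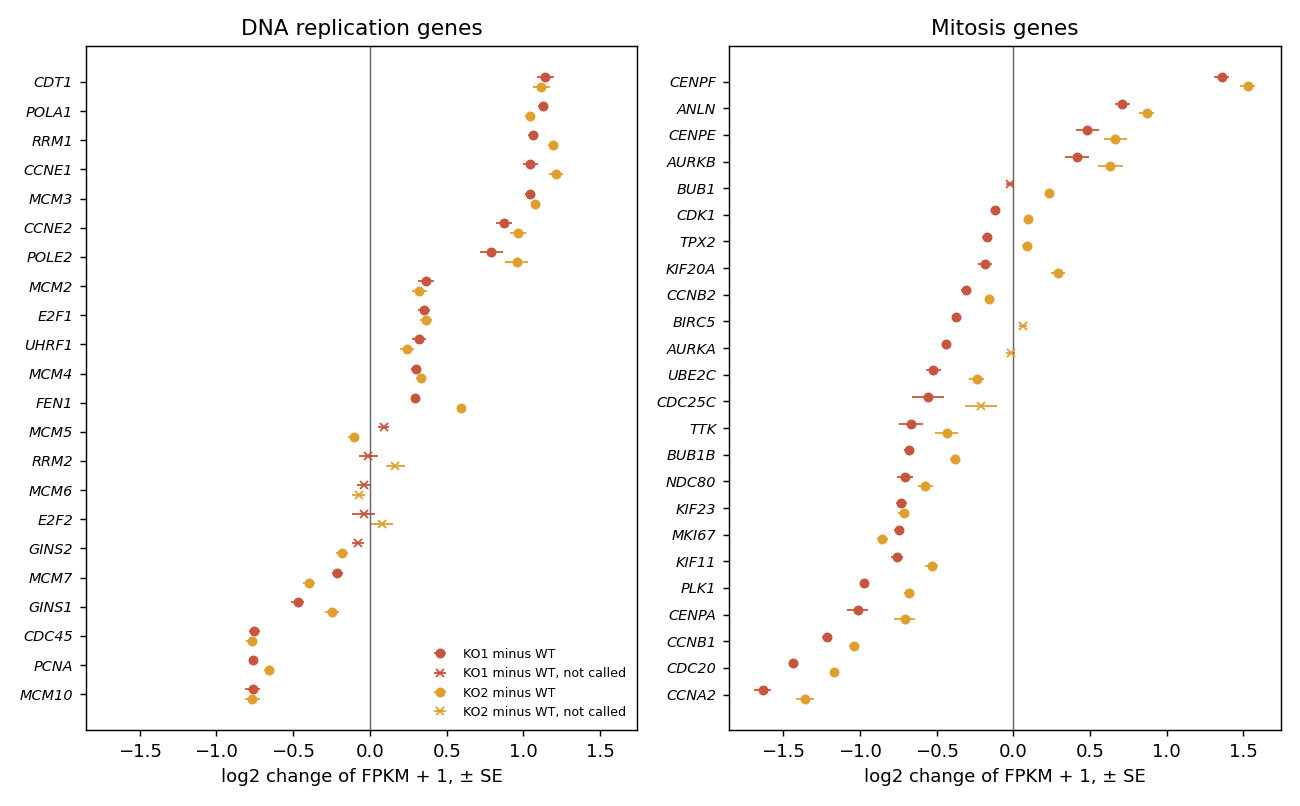
Log2 change of FPKM + 1 (horizontal axis, ± SE of the limma fit) of each replication gene (left) and mitosis gene (right) in KO1 and KO2 against the 2 WT libraries, ordered by the change in KO1; crosses are genes that were not called. Replication genes reach from MCM10, PCNA and CDC45 on the lower side to CDT1 and POLA1 on the higher side. In KO1 all mitosis genes but CENPF, ANLN, CENPE and AURKB lie below 0, and of these BUB1 and CDK1 turn above 0 under other scalings.

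The classes also differed in the letters of their promoters. Genes of these classes are known for such motifs, so the difference is a description and no independent result. RefSeq promoter windows on GRCh38.p14, each 250 bases before to 50 after a start, were found for 38 of the 46 genes, as 27 windows of 19 replication genes and 24 windows of 19 mitosis genes. An E2F motif (TTTCGCGC, TTTGGCGC or TTTCCCGC on either strand) was in 14 of 27 replication windows, which is 51.9%, and in 3 of 24 mitosis windows, which is 12.5%. The share was 3.43% of 22198 windows of protein-coding genes. A CHR motif (TTTGAA on either strand, or TTTAAA, which reads the same on both) was in 4 of 27 replication windows and 18 of 24 mitosis windows, or 14.8% and 75.0%, with 20.2% of protein-coding windows. CCAAT on either strand was in 70.4% of replication windows, 75.0% of mitosis windows and 34.7% of protein-coding windows. Some genes have more than 1 window, and a match is a description of letters, not a bound site.

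**Figure D2:**
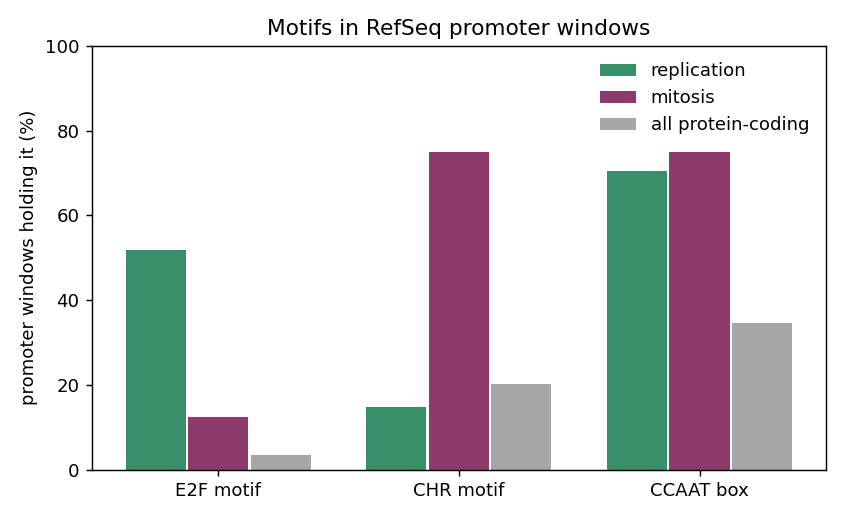
Share (%) of RefSeq promoter windows that hold an E2F motif, a CHR motif or a CCAAT box, for replication genes, mitosis genes and all protein-coding genes. The E2F motif is most frequent in replication windows and the CHR motif in mitosis windows, while the CCAAT box is frequent in both.

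Promoters are shown for the 4 genes of each class with the largest changes in the same direction in both knockout groups, so that the motif layouts may be compared, and for CCNB2 and AURKB as partners of CCNB1 and AURKA. Each stretch is the 150 bases before the start, 5′ to 3′ on the gene's strand (GRCh38.p14), with E2F, CHR and CCAAT letters on either strand in capitals. Positions count from -1 just before the start. Of the replication genes, all higher in the knockout groups, CDT1 (chr16:88803639-88803788, plus strand) carries a reverse-strand E2F motif that begins at -35, and POLA1 (chrX:24693768-24693917, plus strand) carries one at -137 and a reverse-strand CCAAT box at -36.
CDT1: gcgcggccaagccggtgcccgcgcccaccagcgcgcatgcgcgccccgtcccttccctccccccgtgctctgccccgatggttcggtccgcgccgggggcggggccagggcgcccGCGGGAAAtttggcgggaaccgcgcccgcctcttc
POLA1: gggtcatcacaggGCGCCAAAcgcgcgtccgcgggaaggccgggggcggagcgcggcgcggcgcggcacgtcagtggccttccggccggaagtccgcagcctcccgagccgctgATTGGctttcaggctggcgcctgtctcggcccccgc
RRM1 (chr11:4094535-4094684, plus strand) and CCNE1 (chr19:29811841-29811990, plus strand) also rose by more than 1 log2 but hold none of the 3 E2F spellings in their windows. RRM1 has a CCAAT box at -28 and, upstream of the stretch shown, a reverse-strand CHR motif at -199, and CCNE1 has a CHR motif at -28.
RRM1: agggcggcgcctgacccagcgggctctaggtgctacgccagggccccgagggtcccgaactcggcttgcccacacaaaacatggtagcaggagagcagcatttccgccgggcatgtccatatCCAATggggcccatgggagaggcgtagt
CCNE1: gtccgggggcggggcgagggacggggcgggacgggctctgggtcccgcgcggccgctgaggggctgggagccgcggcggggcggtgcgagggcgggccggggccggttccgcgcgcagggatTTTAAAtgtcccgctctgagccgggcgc
Of the mitosis genes that fell, CDC20 (chr1:43358831-43358980, plus strand) and CCNB1 (chr5:69167000-69167149, plus strand) have a CHR motif at -65 and -30, and CCNB2 (chr15:59104996-59105145, plus strand), whose call in KO2 depended on the scaling, has one at -29. CCAAT boxes lie on both sides of it in CDC20 and upstream of it in CCNB1 and CCNB2. Upstream of the stretches shown, CDC20 also has a reverse-strand CHR motif at -178, and CCNB2 has a CHR motif at -193 and a CCAAT box at -244. CCNA2 (chr4:121823884-121824033, minus strand), the mitosis gene with the largest fall, has a reverse-strand CCAAT box at -56. Its window holds neither of the CHR spellings searched, TTTGAA and TTTAAA, and other spellings were not searched.
CCNA2: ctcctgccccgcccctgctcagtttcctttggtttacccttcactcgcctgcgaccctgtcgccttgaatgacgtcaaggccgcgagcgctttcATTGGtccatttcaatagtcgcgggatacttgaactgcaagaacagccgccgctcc
CDC20: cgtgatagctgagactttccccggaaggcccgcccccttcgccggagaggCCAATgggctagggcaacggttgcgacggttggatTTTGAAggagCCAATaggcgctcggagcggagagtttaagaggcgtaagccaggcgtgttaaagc
CCNB1: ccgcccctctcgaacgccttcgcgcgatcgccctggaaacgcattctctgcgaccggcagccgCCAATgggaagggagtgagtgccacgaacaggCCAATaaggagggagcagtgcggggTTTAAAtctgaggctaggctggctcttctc
CCNB2: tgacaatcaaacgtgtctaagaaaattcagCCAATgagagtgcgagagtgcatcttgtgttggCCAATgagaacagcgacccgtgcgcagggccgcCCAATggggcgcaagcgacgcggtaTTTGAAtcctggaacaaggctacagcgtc
Of the mitosis genes that rose, CENPF (chr1:214603045-214603194, plus strand), the one with the largest rise, has a CHR motif at -115 and 3 CCAAT boxes between that motif and the start. Past the stretch shown, CENPF also has a reverse-strand CCAAT box at 13 and a CHR motif at 41. AURKB (chr17:8210226-8210375, minus strand) has a reverse-strand CCAAT box at -153 whose last letters open the stretch shown, and none of the E2F or CHR spellings searched.
CENPF: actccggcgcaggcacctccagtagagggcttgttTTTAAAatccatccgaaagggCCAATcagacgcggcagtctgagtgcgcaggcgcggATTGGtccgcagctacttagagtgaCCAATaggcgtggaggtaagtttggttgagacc
AURKB: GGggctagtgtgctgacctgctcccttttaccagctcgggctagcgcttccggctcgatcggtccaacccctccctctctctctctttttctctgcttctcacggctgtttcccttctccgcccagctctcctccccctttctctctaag

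Among the genes that load and activate the helicase, CDT1 and MCM3 were about 2-fold higher in the knockout groups, and MCM10, CDC45 and GINS1 were lower. CDT1 (ENSG00000167513, chr16:88803213-88809258), the loading factor of the MCM ring, was at 38.4 and 42.0 FPKM in KO1 and 39.2 and 39.6 in KO2, against 16.9 and 18.4 in WT. Its change was 1.14 ± 0.057 log2 in KO1 and 1.12 ± 0.057 in KO2 (limma adjusted p = 2.71e-05 and 2.83e-05). MCM3, a subunit of the ring, was at 94.0 and 90.0 FPKM in KO1 and 95.0 and 93.7 in KO2, against 43.8 and 44.6 in WT, and rose 2.08-fold in KO1 and 2.14-fold in KO2 (limma adjusted p = 4.22e-06 and 3.70e-06). In both genes each knockout library was above each WT library, and KO1 and KO2 lay together.

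Of the other 5 subunits of the ring, MCM2 and MCM4 rose by less than MCM3. In the main fit, MCM5, MCM6 and MCM7 were not called higher in either group. MCM2 was at 58.1 and 57.2 FPKM in KO1 and 56.0 and 55.8 in KO2, against 42.3 and 46.9 in WT, and changed by 0.37 ± 0.050 and 0.32 ± 0.050 log2. MCM4 rose by 0.30 ± 0.032 log2 in KO1 and 0.33 ± 0.032 in KO2. MCM5 was at 24.1 and 22.9 FPKM in KO1 and 20.7 and 20.1 in KO2, against 21.7 and 22.3 in WT. It was not called in KO1 (0.090 ± 0.037, limma adjusted p = 0.0724), and its small fall in KO2 (-0.11 ± 0.037, adjusted p = 0.0431) turned to 0.028, 0.050 and 0.053 log2 under quantile normalization, library-size scaling and voom, none of them called; without either WT or either KO2 library the call was lost as well (adjusted p = 0.0677 to 0.165). In KO1, MCM5 was called higher under quantile normalization, library-size scaling and voom (0.19, 0.22 and 0.23 log2). MCM6 was not called in either group (-0.039 ± 0.043 and -0.074 ± 0.043 log2), apart from 0.096 log2 in KO1 with voom. MCM7, at 82.0 and 79.2 FPKM in KO1 and 73.2 and 68.6 in KO2, against 93.5 and 93.5 in WT, changed by -0.21 ± 0.038 log2 in KO1 and -0.39 ± 0.038 in KO2. The call in KO1 was lost under quantile normalization (limma adjusted p = 0.936) and library-size scaling (0.103). In mean FPKM the order of the subunits was MCM3, MCM7, MCM2, MCM4, MCM6 and MCM5 in both knockout groups. In WT MCM7 led and MCM5 was last, and MCM2, MCM3 and MCM6 were within 43.3 to 44.6 FPKM, closer than the SD of MCM2 (3.20).

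MCM10, which helps start the helicase, was at 7.65 and 7.97 FPKM in KO1 and 7.45 and 8.10 in KO2, against 14.1 and 13.8 in WT. Its change was -0.76 ± 0.049 log2 in KO1 and -0.77 ± 0.049 in KO2 (limma adjusted p = 6.76e-05 and 6.29e-05). CDC45, a helicase cofactor, was at 12.3 and 12.8 FPKM in KO1 and 12.6 and 12.1 in KO2, against 22.1 and 21.6 in WT, which is 1.74-fold lower in KO1 and 1.76-fold lower in KO2. Both genes had all knockout libraries below all WT libraries. GINS1, a subunit of the GINS complex, was at 9.72 and 9.25 FPKM in KO1 and 10.9 and 11.5 in KO2, against 13.8 and 13.3 in WT. It fell by 0.47 log2 in KO1 and, with a smaller value, by 0.25 in KO2, where the call was lost with library-size scaling (limma adjusted p = 0.0947) and with voom (0.101). Its partner GINS2 changed by -0.079 ± 0.040 log2 in KO1, not called, and by -0.18 ± 0.040 in KO2, where the call was lost under all 3 other scalings (adjusted p = 0.265 to 0.621).

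Cyclin E, which drives entry into S phase, was higher in both knockout groups for both of its genes. CCNE1 (ENSG00000105173, chr19:29811898-29824308) was at 14.3 and 13.7 FPKM in KO1 and 16.0 and 15.7 in KO2, against 6.52 and 6.02 in WT, a rise of 2.23-fold in KO1 and 2.52-fold in KO2 (limma adjusted p = 1.96e-05 and 1.14e-05). CCNE2 was at 4.04 and 4.18 FPKM in KO1 and 4.51 and 4.36 in KO2, against 1.81 and 1.76 in WT, with 2.30-fold and 2.49-fold (adjusted p = 4.64e-05 and 3.10e-05). All knockout libraries were above all WT libraries for both. CCNE2 is uncertain, since 37.1% of its exon bases are also exons of INTS8 on the opposite strand and no source used here gives the strand setting of the counting. E2F1, an activating E2F factor, rose by 0.35 ± 0.039 log2 in KO1 and 0.37 ± 0.039 in KO2, while E2F2, another activator, was not called (-0.041 ± 0.077 and 0.077 ± 0.077 log2). With library-size scaling and with voom, E2F2 was called higher in KO2 (0.21 and 0.26 log2).

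The polymerase and nucleotide genes split. POLA1 (ENSG00000101868, chrX:24693919-24996986), the catalytic subunit of the polymerase that primes DNA synthesis, was at 21.8 and 21.6 FPKM in KO1 and 20.2 and 20.6 in KO2, against 9.52 and 9.26 in WT. Its change was 1.13 ± 0.030 log2 in KO1 and 1.04 ± 0.030 in KO2 (limma adjusted p = 3.47e-06 and 4.22e-06). POLE2, a subunit of the leading-strand polymerase, was at 6.24 and 6.04 FPKM in KO1 and 6.61 and 7.42 in KO2, against 3.34 and 2.93 in WT, 1.96-fold and 2.24-fold the WT level. RRM1, the large subunit of ribonucleotide reductase, was at 54.6 and 51.7 FPKM in KO1 and 58.2 and 58.2 in KO2, against 24.9 and 25.0 in WT, which is 2.13-fold in KO1 and 2.34-fold in KO2 (limma adjusted p = 5.36e-06 and 3.65e-06). All 3 had every knockout library above every WT library. RRM2, the small subunit of the same enzyme, did not follow RRM1. It was at 14.9 and 13.8 FPKM in KO1 and 15.9 and 16.9 in KO2, against 15.1 and 13.9 in WT, and was not called (adjusted p = 0.889 and 0.0535 by limma), although in KO2 it was called higher under the 3 other scalings (0.29 to 0.34 log2).

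PCNA (ENSG00000132646, chr20:5114953-5126626), the sliding clamp and the most abundant of the 46 transcripts, was at 110.3 and 109 FPKM in KO1 and 120.0 and 115 in KO2, against 186 and 186 in WT. It fell to 109 ± 1.23 FPKM in KO1 and 117 ± 3.86 in KO2, against 186 ± 0.445 in WT (mean ± SD, n = 2 each; -0.76 ± 0.030 and -0.66 ± 0.030 log2, limma adjusted p = 1.15e-05 and 1.79e-05). FEN1, the flap nuclease that processes Okazaki fragments, went the other way, at 76.1 and 77.4 FPKM in KO1 and 95.4 and 94.3 in KO2, against 62.5 and 62.5 in WT. It was 1.23-fold higher in KO1 and 1.52-fold higher in KO2. UHRF1, which couples DNA methylation to replication, rose by 0.32 ± 0.045 log2 in KO1 and 0.24 ± 0.045 in KO2.

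**Figure D3:**
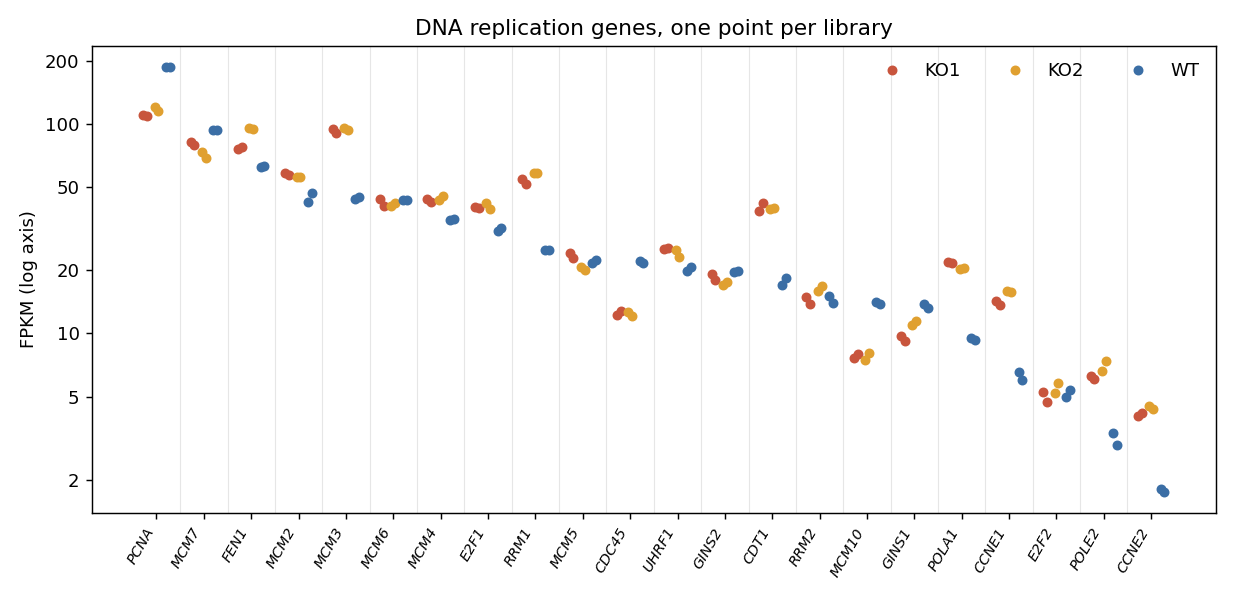
FPKM (log axis) of the 22 replication genes, ordered by their mean in WT, with 1 point per library for KO1, KO2 and WT. PCNA and MCM7 lead in WT, MCM3 is above MCM7 in the knockout libraries, and the pairs of points of a group lie close together.

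Of the cyclins and kinase regulators of mitosis, CCNA2 and CCNB1 showed the largest falls and CDK1 hardly differed. Cyclin A2, from CCNA2 (ENSG00000145386, chr4:121816444-121823933), was at 18.9 and 21.3 FPKM in KO1 and 24.5 and 24.4 in KO2, against 63.5 and 65.1 in WT, 3.20-fold lower in KO1 and 2.63-fold lower in KO2. Its change was -1.63 ± 0.056 log2 in KO1 and -1.36 ± 0.056 in KO2 (limma adjusted p = 7.70e-06 and 1.38e-05). Cyclin B1, from CCNB1, was at 50.1 and 48.3 FPKM in KO1 and 56.4 and 54.9 in KO2, against 118 and 113 in WT, or 2.34-fold and 2.07-fold lower (limma adjusted p = 3.74e-06 and 5.82e-06). The knockout libraries lay well below WT in both genes, and KO1 below KO2.

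Cyclin B2, from CCNB2, was at 27.5 and 27.6 FPKM in KO1 and 31.0 and 30.5 in KO2, against 35.1 and 33.6 in WT, a fall of 0.31 log2 in KO1. Its call in KO2 (-0.16 ± 0.031 log2) did not hold under quantile normalization, library-size scaling or voom, with 0.027, 0.0033 and 0.0014 log2. CDK1, the mitotic kinase that these cyclins bind, was at 37.6 and 37.3 FPKM in KO1 and 43.6 and 43.4 in KO2, against 41.1 and 40.4 in WT. It was called lower in KO1 (-0.12 ± 0.023 log2, limma adjusted p = 0.00555) and higher in KO2 (0.093 ± 0.023, adjusted p = 0.0137), but the KO1 value became 0.026, 0.014 and 0.013 log2 under those 3 scalings, not called, and the KO2 call was lost without WT replicate 2 or KO2 replicate 1 (adjusted p = 0.0746 and 0.0548 by limma). CDC25C, a phosphatase that activates CDK1, was at 3.92 and 3.26 FPKM in KO1 and 4.92 and 4.68 in KO2, against 6.23 and 5.24 in WT, lower in KO1 (-0.55 ± 0.10 log2) with no call in KO2 (-0.21 ± 0.10, adjusted p = 0.116 by limma).

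CDC20, the activator of the anaphase-promoting complex, fell more than UBE2C, a ubiquitin-conjugating enzyme of that complex. CDC20 (ENSG00000117399, chr1:43358955-43363203) was at 38.5 and 37.6 FPKM in KO1 and 45.9 and 46.0 in KO2, against 104 and 106 in WT, 2.75-fold lower in KO1 and 2.28-fold lower in KO2. Its change was -1.44 ± 0.025 log2 in KO1 and -1.17 ± 0.025 in KO2 (limma adjusted p = 1.01e-06 and 1.72e-06). UBE2C was at 51.6 and 47.8 FPKM in KO1 and 61.9 and 59.4 in KO2, against 73.6 and 69.8 in WT. It fell by 0.52 log2 in KO1, while the call in KO2 (-0.24 ± 0.049 log2) was lost under the 3 other scalings (limma adjusted p = 0.160 to 0.215).

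The spindle checkpoint and mitotic kinases ranged from a fall of about 2-fold to a rise. PLK1, the polo-like kinase, was at 16.2 and 16.8 FPKM in KO1 and 20.6 and 20.2 in KO2, against 33.2 and 33.6 in WT, 2.02-fold lower in KO1 and 1.63-fold lower in KO2 (limma adjusted p = 5.23e-06 and 1.61e-05). The checkpoint genes BUB1B and TTK fell by 0.68 and 0.67 log2 in KO1 and by 0.38 and 0.43 in KO2. BUB1, a kinase of the same checkpoint, was at 23.3 and 22.9 FPKM in KO1 and 27.8 and 27.9 in KO2, against 23.6 and 23.4 in WT. It was called higher in KO2 (0.24 ± 0.025 log2), and in KO1 it was not called (-0.024 ± 0.025), but it was called higher under quantile normalization, library-size scaling and voom (0.077, 0.11 and 0.11 log2).

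AURKA, the centrosomal Aurora kinase, was at 28.4 and 27.5 FPKM in KO1 and 37.4 and 38.0 in KO2, against 38.1 and 38.2 in WT. The KO1 libraries stood below the others, with -0.44 ± 0.027 log2 in KO1 (limma adjusted p = 5.92e-05) and -0.017 ± 0.027 in KO2 (adjusted p = 0.584), where the 3 other scalings called a rise of 0.14 to 0.15 log2. AURKB, the Aurora kinase of the chromosomal passenger complex, was at 17.5 and 19.2 FPKM in KO1 and 23.1 and 19.97 in KO2, against 13.1 and 13.8 in WT, 1.36-fold higher in KO1 and 1.60-fold higher in KO2. Its complex partner survivin, from BIRC5, was at 25.2 and 25.9 FPKM in KO1 and 34.9 and 34.8 in KO2, against 33.2 and 33.5 in WT. BIRC5 fell by 0.37 log2 in KO1 while KO2 had no call (0.061 ± 0.026, adjusted p = 0.0817 by limma; called higher under the 3 other scalings, 0.22 to 0.24 log2).

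Motors and spindle factors moved in both directions. KIF11, the kinesin that pushes spindle poles apart, was at 15.5 and 15.0 FPKM in KO1 and 17.5 and 18.5 in KO2, against 26.8 and 26.0 in WT, and KIF23, a kinesin of the central spindle, at 10.6 and 10.6 FPKM in KO1 and 10.5 and 11.0 in KO2, against 18.2 and 18.3 in WT. Both were lower in the knockout groups, by 1.74-fold and 1.72-fold in KO1 and 1.47-fold and 1.70-fold in KO2. KIF20A, a kinesin of cytokinesis, was at 18.8 and 17.5 FPKM in KO1 and 26.1 and 25.3 in KO2, against 21.3 and 20.3 in WT. It was called lower in KO1 (-0.19 ± 0.046 log2) and higher in KO2 (0.29 ± 0.046), and the KO1 call was lost under the 3 other scalings and without WT replicate 1 or KO1 replicate 2 (limma adjusted p = 0.0648 and 0.0649).

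TPX2, which carries AURKA to the spindle, was at 64.7 and 63.6 FPKM in KO1 and 76.0 and 78.2 in KO2, against 70.9 and 74.1 in WT. Its fall in KO1 (-0.17 ± 0.032 log2) was lost under the 3 other scalings (limma adjusted p = 0.263 to 0.363). In KO2 it was at the threshold (0.088 ± 0.032 log2, adjusted p = 0.04997 by limma), and the call was lost on leaving out any one library other than WT replicate 2 (adjusted p = 0.0640 to 0.210). ANLN, the gene of the cytokinetic ring protein anillin, was at 42.6 and 41.8 FPKM in KO1 and 46.3 and 48.2 in KO2, against 26.6 and 24.3 in WT, 1.66-fold higher in KO1 and 1.86-fold higher in KO2 (adjusted p = 8.79e-05 and 3.95e-05 by limma).

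At the centromere, CENPF and CENPE rose while CENPA and NDC80 fell. CENPF (ENSG00000117724, chr1:214603195-214664588), a kinetochore-associated protein gene, was at 21.8 and 21.6 FPKM in KO1 and 23.7 and 25.5 in KO2, against 8.15 and 7.60 in WT, the largest change of the mitosis genes in the higher direction in both groups. Its change was 1.36 ± 0.049 log2 in KO1 and 1.53 ± 0.049 in KO2 (limma adjusted p = 9.10e-06 and 5.99e-06). CENPE, a kinetochore kinesin, was at 5.02 and 5.31 FPKM in KO1 and 5.58 and 6.43 in KO2, against 3.50 and 3.33 in WT, 1.51-fold and 1.76-fold the WT level.

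CENPA, the histone variant that marks centromeres, was at 7.91 and 8.54 FPKM in KO1 and 9.72 and 11.1 in KO2, against 17.6 and 17.7 in WT, 2.14-fold lower in KO1 and 1.69-fold lower in KO2. NDC80, a microtubule-binding kinetochore subunit, fell by 0.71 log2 in KO1 and 0.57 in KO2. MKI67, the gene of the proliferation marker Ki-67, was at 22.8 and 22.0 FPKM in KO1 and 20.5 and 20.9 in KO2, against 37.4 and 39.0 in WT. Its change was -0.74 ± 0.035 log2 in KO1 and -0.85 ± 0.035 in KO2 (limma adjusted p = 2.18e-05 and 1.32e-05). In CENPA and MKI67 alike no knockout library reached the WT libraries.

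**Figure D4:**
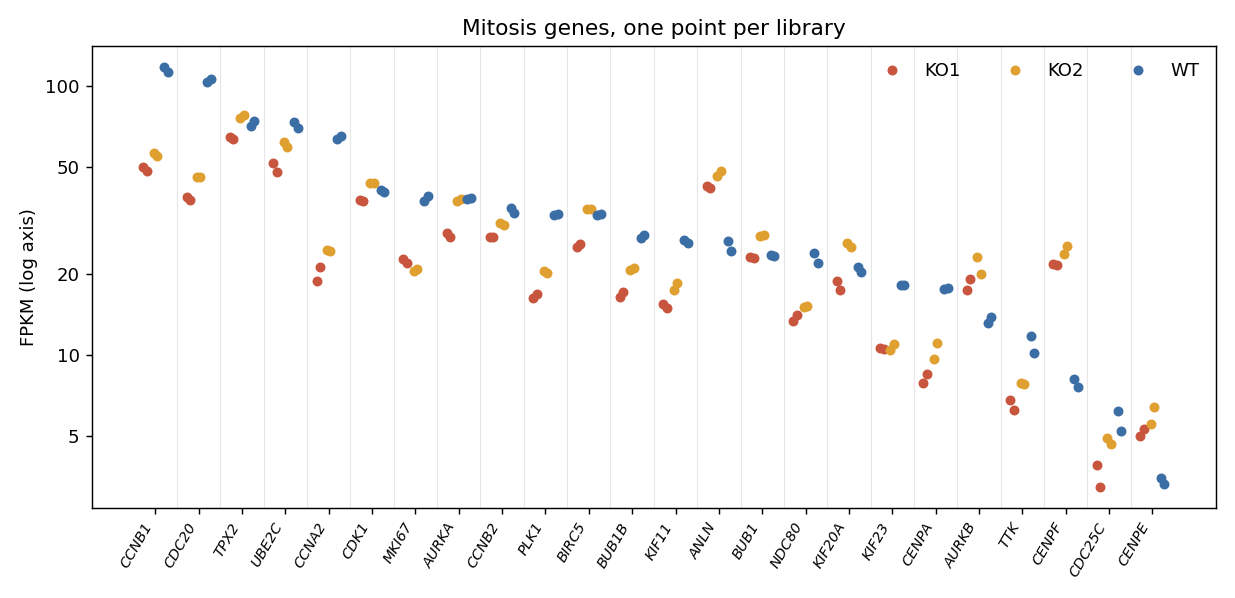
FPKM (log axis) of the 24 mitosis genes, ordered by their mean in WT, with 1 point per library for KO1, KO2 and WT. CCNB1 and CDC20 are highest in WT, TPX2 is highest in the knockout libraries, and CENPF and ANLN lie higher in the knockout libraries than in WT.

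Against a minimum fold of 1.5, fewer members were called. In KO1, 6 replication genes were higher (POLA1, CCNE1, MCM3, RRM1, CDT1 and CCNE2) and 3 lower (MCM10, CDC45 and PCNA), and in the mitosis genes CENPF was higher and 9 were lower. The same rule called 18.4% of all genes higher and 18.8% lower. In KO2, POLE2 joined the higher replication genes and PCNA left the lower ones, and among the mitosis genes ANLN and CENPF were higher and CDC20, CCNB1, KIF23, CCNA2, MKI67 and PLK1 lower, with 18.6% and 20% of all genes.

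KO2 and KO1, which bear the same genotype label, differed in the mitosis genes and little in the replication genes. Of 24 mitosis genes, 15 were higher in KO2 than in KO1, 0 were lower and 9 were not called, against 11.2% higher and 15% lower among all tested genes. The count of 15 became 11 without KO1 replicate 1, 10 without KO1 replicate 2, 11 without KO2 replicate 1 and 10 without KO2 replicate 2, and 17 and 16 without WT replicates 1 and 2; it was 22 with voom. Of 22 replication genes, 3 were higher (GINS1, RRM1 and FEN1) and 2 lower (MCM5 and MCM7), which is near the background; the split was 5 and 2 under quantile normalization or library-size scaling and 6 and 2 with voom. The median change was 0.25 log2 for the mitosis genes and 0.023 for the replication genes, beside -0.014 over all genes. The changes were small: none of the 46 was called against a minimum fold of 1.5, where 0.256% of all genes were higher and 0.548% lower.

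The largest differences were in KIF20A, BIRC5 and AURKA. KIF20A was at 26.1 and 25.3 FPKM in KO2, against 18.8 and 17.5 in KO1, 1.41-fold higher in KO2 (0.48 ± 0.046 log2, limma adjusted p = 0.00287). BIRC5 was at 34.9 and 34.8 FPKM in KO2, against 25.2 and 25.9 in KO1, 1.36-fold higher (adjusted p = 9.95e-04 by limma). AURKA was at 37.4 and 38.0 FPKM in KO2, against 28.4 and 27.5 in KO1, 1.35-fold higher (adjusted p = 0.00112 by limma). In all 3 genes both KO2 libraries lay above both KO1 libraries. This held for 22 of 24 mitosis and 8 of 22 replication genes, and the reverse for 1 and 6, beside 29.2% above and 35.6% below among all tested genes. The other 12 called mitosis genes were higher by 0.15 to 0.31 log2, with CCNB2 lowest and CENPA highest. Of the 20 called members, CCNA2, CCNB1, CCNB2, CENPA, KIF11, UBE2C, GINS1, RRM1, MCM5 and MCM7 lost the call without at least 1 of the 6 libraries. MKI67 had -0.11 ± 0.035 log2 and was not called (adjusted p = 0.0824 by limma), and it was the 1 mitosis gene with a negative value.

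**Figure D5:**
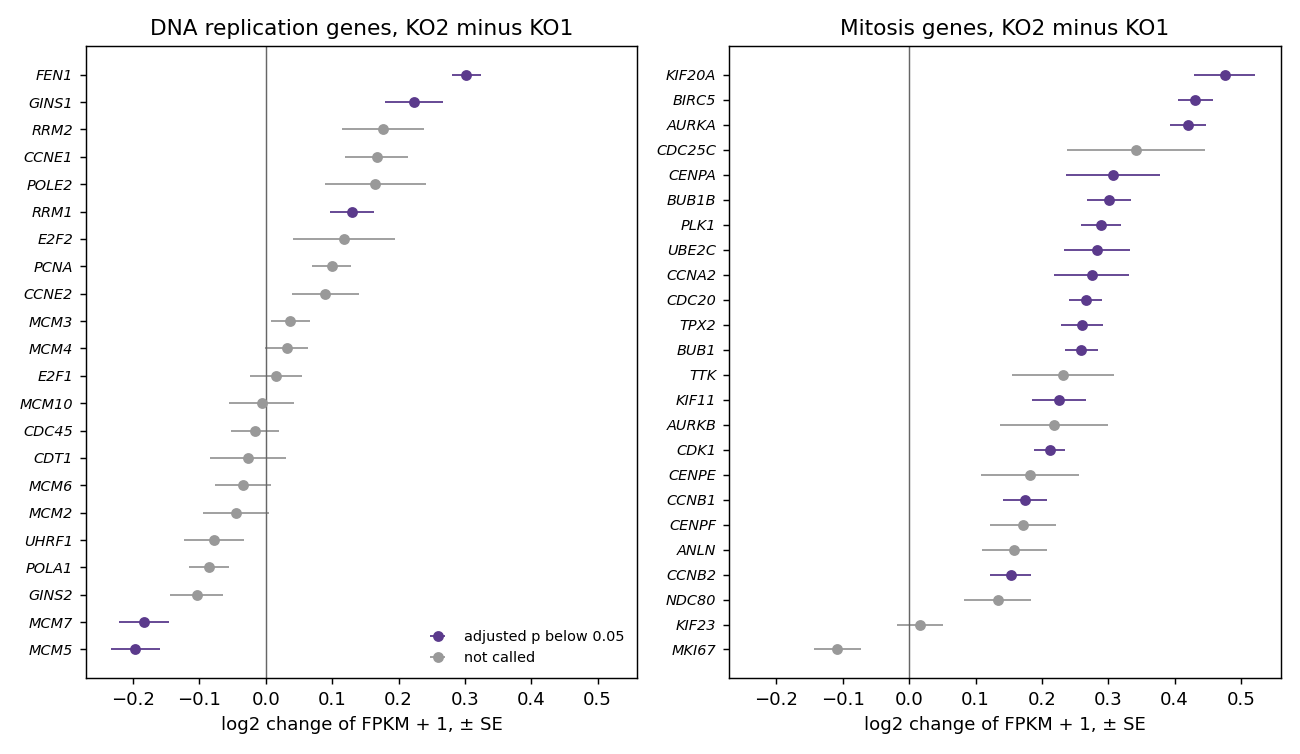
Log2 change of FPKM + 1 (± SE of the limma fit) in KO2 relative to KO1 for the replication genes (left) and mitosis genes (right); purple points were called and grey points were not. The 15 called mitosis genes all lie to the right of 0, and the replication genes lie on both sides.

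Further genes of the same processes were read from 3 other lists. Of 41 other replication genes, 15 higher and 20 lower were called in KO1 against WT and 13 higher and 20 lower in KO2 against WT, with medians of -0.11 and -0.13 log2, so these did not show the predominance of rises seen in the 22. That is 36.6% higher and 48.8% lower in KO1 and 31.7% and 48.8% in KO2. Among all tested genes it was 39.3% and 38.6% in KO1 and 39.1% and 39.8% in KO2. CDC6, the loading partner of CDT1, was at 15.1 ± 0.524 FPKM in KO1 and 16.6 ± 0.305 in KO2, against 53.4 ± 0.510 in WT (SD, n = 2 each), and GMNN, the gene of geminin, which inhibits CDT1, at 30.8 ± 0.466 FPKM in KO1 and 30.5 ± 1.14 in KO2, against 9.56 ± 0.453 in WT. CDC6 was 3.53-fold and 3.21-fold lower, and GMNN 3.22-fold and 3.19-fold higher (limma adjusted p = 1.32e-06 and 1.62e-06 for CDC6, 3.96e-06 and 3.98e-06 for GMNN). POLE3, a histone-fold subunit of polymerase epsilon, changed by -1.08 and -1.14 log2, and POLA2, the partner of POLA1, by 1.19 and 1.10.

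Of 59 other mitosis genes, 14 higher and 36 lower were called in KO1 against WT and 22 higher and 29 lower in KO2 against WT, with medians of -0.42 and -0.13 log2. That is 23.7% higher and 61.0% lower in KO1, beside 39.3% and 38.6% of all tested genes. In KO2 it is 37.3% and 49.2%, beside 39.1% and 39.8%. CEP55, which acts in the final cut between daughter cells, was at 14.2 ± 0.688 FPKM in KO1 and 15.9 ± 0.689 in KO2, against 47.2 ± 0.0149 in WT, and LMNB1, the gene of lamin B1, changed by -1.46 and -1.30 log2. KIF18A, a kinesin that dampens chromosome movements, was at 10.5 ± 0.522 FPKM in KO1 and 11.7 ± 1.03 in KO2, against 2.90 ± 0.0713 in WT, 3.64-fold and 4.05-fold higher, and ASPM, a spindle pole gene, changed by 0.94 and 1.29 log2. In KO2 against KO1, 33 of these 59 genes were higher and 2 lower, with a median of 0.20 log2, beside 11.2% higher and 15% lower among all tested genes. KIF4A, a chromosome-bound kinesin, was at 16.1 ± 0.750 FPKM in KO2 and 9.31 ± 0.683 in KO1, 1.73-fold higher (limma adjusted p = 0.00176), and CENPI and NUF2, both kinetochore genes, were higher by 0.70 and 0.61 log2. The 2 that were lower were CKAP2 (-0.45 log2) and ECT2 (-0.25).

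Of 32 tested control genes, 17 higher and 11 lower were called in KO1 and 15 higher and 16 lower in KO2 against WT. That is 53.1% higher and 34.4% lower in KO1, beside 39.3% and 38.6% of all tested genes. In KO2 it is 46.9% and 50%, beside 39.1% and 39.8%. The CDK inhibitor gene CDKN1C was at 65.2 ± 1.95 FPKM in KO1 and 75.8 ± 0.756 in KO2, against 0.807 ± 0.164 in WT (SD, n = 2 each), 80.7-fold and 93.9-fold higher. CDKN1C was under 1 FPKM in WT and passed the filter through the knockout libraries alone, so its higher calls are no separate result. Its fold changes divide by that low WT value. CDKN1A, the gene of the inhibitor p21, was at 45.9 ± 1.34 FPKM in KO1 and 51.8 ± 0.453 in KO2, against 8.14 ± 1.06 in WT. CDK6, a kinase of G1, was at 27.3 ± 0.00656 FPKM in KO1 and 18.3 ± 1.01 in KO2, against 3.40 ± 0.0358 in WT. CDKN1A and CDK6 were above WT in every knockout library, and their limma adjusted p was at most 7.26e-06. E2F5, a repressive E2F factor, and CDKN2D, an inhibitor of G1 kinases, fell by 1.52 and 1.44 log2 in KO1 and by 1.54 and 1.10 in KO2. In KO2 against KO1, 1 control gene was higher (CDK2, 0.13 log2) and 11 were lower, beside 11.2% higher and 15% lower among all tested genes. The retinoblastoma gene RB1 was at 13.3 and 15.3 FPKM in KO2, against 26.5 and 25.5 in KO1, a fall of 0.82 log2, and MYC, a growth-promoting transcription factor, fell by 0.66.

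To show how far members moved with their surroundings, each member was set beside the tested protein-coding genes that start within 2 Mb of it. The neighbours' median had the same sign as the member for 15 of 22 replication genes in KO1 and 16 in KO2 against WT, and for 15 and 17 of 24 mitosis genes. How often this holds over all tested genes was not computed. The 8 neighbours of POLA1 on the X chromosome had medians of 0.93 and 0.84 log2, near its own 1.13 and 1.04, and the 4 of MKI67 on chromosome 10 had -0.82 and -0.78, near its own -0.74 and -0.85. For KIF23 on chromosome 15, 14 neighbours had -0.97 and -1.08 log2, below its own -0.73 and -0.71. For PCNA, CDC45, MCM10, GINS1 and MCM7, lower in both groups, the neighbour medians in KO1 were -0.53, -0.52, -0.55, -0.90 and -0.035 log2. Their own values there were -0.76, -0.75, -0.76, -0.47 and -0.21. For CENPA the neighbours had -0.57 log2 in KO1, beside its own -1.01. CCNE1 on chromosome 19 differed, with all 5 neighbours negative, a median of -0.98 and -0.82 log2 and its own values of 1.04 and 1.21. CCNE2 and POLE2 differed too, with neighbour medians of -0.86 and -0.49 log2 in KO1 and own values of 0.88 and 0.79. CCNA2, CCNB1 and CDC20 had neighbour medians of -0.14, -0.24 and -0.029 log2 in KO1, far smaller than their own -1.63, -1.21 and -1.44. In KO2 against KO1 the sign was the same for 12 of 22 replication genes and 9 of 24 mitosis genes. The median of the neighbours' medians there was -0.033 log2 for the mitosis genes, with exceptions. The 39 neighbours of BIRC5 on chromosome 17 had a median of 0.32 log2 (33 positive), near its own 0.43. The 6 neighbours of CDK1 on chromosome 10 had 0.26 (all 6 positive), near its own 0.21, and the 7 of TTK on chromosome 6 had 0.37, beside its own 0.23, which was not called. Copy number was not measured, and its part in these values was not tested.

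Reads of some members cannot be separated from those of other genes. In 15 of the 46, exon bases overlap exons of another gene in GENCODE release 29. The shares are under 13% of the exon bases except in CCNE2, in MCM2 (22.7%, with an antisense RNA at 2 to 18 reads) and in RRM2 (20.2%, with a same-strand transcript at 17 to 114 reads, against 1359 to 1856 reads in RRM2). Pseudogenes named after 9 members had at most 11 reads in any library.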

How the data were processed

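RNA-seq of total RNA from NCI-N87 cells gave 1 deposited FPKM table per library, 6 in all, with 58735 gene IDs and names in GENCODE release 29. Per the submitters' processing notes the authors used HISAT2 2.0.5, featureCounts 1.5.0-p3 and build hg38; the strand setting of the counting is not given in these sources. Each deposited FPKM value was a whole multiple of 1 read's worth for its gene (100% of values, tolerance 0.1 read), and the recovered reads came to 17599759 to 22852340 per library. The FPKM scaling total was 0.936 to 1.05 times these reads, so the deposited values carry a further scaling.

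Groups came from the titles. The tests were limma 3.58.1 (R 4.3.3) with a mean-variance trend on log2(FPKM + 1), over 16046 genes with at least 1 FPKM in at least 2 libraries, with all 6 libraries in 1 fit and Benjamini-Hochberg adjustment over all genes; the pseudocount shrinks changes of low genes. Fold changes are ratios of mean FPKM. Alternatives were a pseudocount of 0.1, no filter, voom on the recovered reads, library size as the only scaling, quantile normalization, only the 2 groups compared, the replicate block, a minimum fold of 1.5 and each library left out. Replicate pairs differed beyond sampling noise (chi-square per degree of freedom 1.80 to 2.46), so none was counted once. All members are named, and of the 3 other lists up to 3 called genes per direction and comparison with the largest change were eligible. The members and lists were chosen with earlier results of these data known. RefSeq promoters matched 38 members; CCNE2, MCM4, TPX2, UBE2C, MCM5, BIRC5, AURKA and TTK had no entry in the table used.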

Additional observations from a re-analysis of the deposited data

Results flagged for a closer look

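The knockout groups KO2 and KO1 carry the same genotype label, and 20 of the 46 genes differed between them by limma's test of the difference itself (Benjamini-Hochberg adjusted p below 0.05, log2(FPKM + 1) scale, KO2 minus KO1). Among the mitosis genes the differences were 0.48 log2 for KIF20A, 0.43 for BIRC5, 0.42 for AURKA, 0.31 for CENPA, 0.30 for BUB1B, 0.29 for PLK1 and 0.28 for UBE2C. They were 0.27 log2 for CCNA2, 0.27 for CDC20, 0.26 for BUB1, 0.26 for TPX2, 0.23 for KIF11, 0.21 for CDK1, 0.17 for CCNB1 and 0.15 for CCNB2. Among the replication genes FEN1 had 0.30 log2, GINS1 0.22, RRM1 0.13, MCM7 -0.18 and MCM5 -0.20. Over all tested genes 26.2% were called in this comparison. The 20 were 15 of 24 mitosis genes and 5 of 22 replication genes, and the latter is near that share. In all 20 genes the 2 KO2 libraries lay on one side of the 2 KO1 libraries, but a call with 2 libraries a group nearly requires this. Among all tested genes 29.2% lay above and 35.6% below.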

How the results depend on the processing

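Of the counts of called genes under the alternatives, 285 stayed within 1.5 times the count reported and 51 did not. Against a minimum fold of 1.5, replication genes numbered 6 higher and 3 lower in KO1 against WT, 7 and 2 in KO2 against WT and 0 and 0 in KO2 against KO1, and mitosis genes 1 and 9, 2 and 6, and 0 and 0. The 3 other lists together had 21 higher and 29 lower, 22 and 26, and 0 and 0, and all tested genes 2950 and 3023, 2989 and 3206, and 41 and 88. Replication genes lower in KO2 against WT numbered 4 with plain library-size scaling and 4 with voom. Replication genes higher in KO2 against KO1 numbered 5 under quantile normalization, 5 with plain library-size scaling, 6 with voom and 1 with only these 2 groups in the fit; those lower numbered 1 without the filter and 1 with only these groups. All genes higher in KO2 against KO1 numbered 2734 with voom. The cause of these moves was not tested, apart from the stricter fold. With 1 library left out, counts in KO2 against KO1 ran from 10 to 17 for mitosis genes higher, 1 to 3 for replication genes higher, 0 to 2 for replication genes lower, 16 to 38 and 7 to 14 for the other lists higher and lower, and 840 to 1660 and 986 to 2237 for all genes; a group left with 1 library is assumed to vary like the others.

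Of 1932 single values of members, 1734 kept the side of the threshold and, where called, the direction. Another 143 lost the call, 39 gained it and 16 changed sign with a call before or after. A change of sign between values that were not called was counted among the 1734. Under quantile normalization, library-size scaling and voom, CDK1 in KO1 became 0.026, 0.014 and 0.013 log2, BUB1 in KO1 0.077, 0.11 and 0.11, MCM5 in KO2 0.028, 0.050 and 0.053, CCNB2 in KO2 0.027, 0.0033 and 0.0014, and AURKA in KO2 0.15, 0.14 and 0.15, all against WT; MCM6 in KO1 had 0.096 with voom. The cause was not tested; voom moved the median of all genes up by as much as 0.17 log2, while quantile normalization moved it by -0.0043 in KO1 and 0.015 in KO2 against WT.

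Replicate numbers did not pair the libraries: the correlations of deviations between same-numbered libraries were 0.019, -0.0041 and -0.038. With the replicate block, mitosis genes numbered 4 higher and 19 lower in KO1 against WT, 7 and 14 in KO2 against WT, and 16 and 0 in KO2 against KO1, replication genes 12 and 5, 12 and 6, and 2 and 2, and all genes 6234 and 6110, 6204 and 6324, and 1482 and 1985. With 2 libraries a group and 142 reads at the fewest in a member, counting error is largest for CCNE2.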
